A study of Mus musculus with 16 samples.

Results

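The genes described here are 10 parts of the machinery that carries a cell from G1 into S phase: the D-type cyclins Ccnd2 and Ccnd3, the kinases Cdk4, Cdk6 and Cdk2, the retinoblastoma gene Rb1, and 4 inhibitors of the kinases, Cdkn1a (p21), Cdkn1b (p27), Cdkn2c (p18) and Cdkn2d (p19). They were taken by gene symbol, with no threshold on a measured value, but with earlier results of these data known. They are 10 of the 24028 genes in the count table. All 10 were among the 17414 genes that passed the filter on low counts. The RNA came from CD8 T cells that had infiltrated TS/A mammary tumours of BALB/c mice, and the question posed by the series is how the length of treatment with a histone deacetylase (HDAC) inhibitor bears on proliferation and effector function.

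All 4 groups shared the mouse strain, the injected TS/A line, which is a transplantable adenocarcinoma, and the sort gate of live CD45.2+ CD8+ CD4- cells. The vehicle groups were taken at day 10 and day 17 after injection. The entinostat groups were given 20 mg/kg of entinostat, an inhibitor of class I HDACs, every day from day 7 and were taken on the same days, which is 3 and 10 days after the first dose. Each group had 4 libraries. The labels do not say whether these came from separate animals, so the p-values measure the spread between samples, which may be technical. Neither the age nor the sex of the mice is stated in the labels.

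In G1, D-type cyclins bind CDK4 or CDK6 and start the phosphorylation of RB1, which in its unphosphorylated form holds E2F transcription factors in check, and CDK2 with an E-type cyclin carries that phosphorylation further. INK4 inhibitors such as p18 and p19 bind CDK4 and CDK6 themselves, while Cip/Kip inhibitors such as p21 and p27 bind cyclin-kinase complexes. In T cells p27 is known as a protein of resting cells that falls when they enter the cycle, and Cdkn1a is among the best known genes raised by HDAC inhibitors in cultured cells.

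Total counts ran from 3640768 to 4227704 in the vehicle day 10 libraries, from 2639019 to 5709243 in entinostat day 10, from 2842099 to 6975904 in vehicle day 17 and from 554593 to 3530961 in entinostat day 17, where replicate 3 was the shallowest. Of 8 CD8 T cell markers 7 had values, and their summed level was 1993 to 2264 CPM (counts scaled to a common TMM-adjusted library size) in vehicle day 10, 1765 to 2137 in entinostat day 10, 1654 to 1948 in vehicle day 17 and 1767 to 2933 in entinostat day 17. Cd8a, a chain of the sorted receptor, averaged 331 to 442 CPM over the groups and was called in 1 comparison, as higher at day 17 than at day 10 in entinostat (0.40 ± 0.13, adjusted p = 0.046). Markers of plasmacytoid dendritic cells moved with treatment. All 8 were called lower in entinostat at both days, and their sum was 959 to 2031 CPM in vehicle day 10 against 284 to 557 in entinostat day 10, and 1797 to 2241 in vehicle day 17 against 256 to 359 in entinostat day 17. None of them was at 0 in all libraries of a group. The sum of 6 myeloid markers was 77.8 to 196 CPM in vehicle and 40.9 to 76.3 in entinostat at day 10, and 171 to 258 against 48.1 to 66.5 at day 17. Of 5 that were tested, Cd68 and Cd14 were called lower at both days. Adgre1 was called higher at day 10 (2.64 ± 0.62, adjusted p = 0.0123), on 2 to 5 counts a library in vehicle and 18 to 28 in entinostat. Endothelial sums lay apart at day 17, at 175 to 240 CPM in vehicle and 102 to 130.3 in entinostat, and overlapped at day 10. Tumour epithelial sums had lower means in entinostat, with ranges that overlapped at both days. Most of that sum was Cdh1, which averaged 203 CPM in vehicle day 10 and 108 in entinostat day 10. Cdh1 was called lower at both days, and no other tested gene of that list was called. Epcam libraries were all higher in entinostat at day 10 and all lower at day 17. The median log2 fold change of the 4 tested genes was 0.59 at day 10 and -0.38 at day 17. Of 3 CD4 T cell markers, Cd4 was called lower in entinostat at day 10 (-1.66 ± 0.30, adjusted p = 0.00297) and day 17 (-2.75 ± 0.33, 2.03e-05). Cd40lg was called lower at day 17 only, and Foxp3 at neither day. Of 4 tested B cell markers, Cd79b was called lower at both days and Ms4a1 higher at day 10. None of 3 natural killer cell markers was called between treatments. The part these cells have in the differences between treatments was not tested. Fewer cells of a type and less RNA per cell cannot be told apart in bulk libraries such as these.

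Differences were tested with edgeR's quasi-likelihood test over all 16 libraries, and a gene is called where its Benjamini-Hochberg adjusted p was at most 0.05. At day 17, Cdkn1b, Cdkn2d and Ccnd2 were lower in entinostat than in vehicle, which is 3 of 10, and 18.3% of all tested genes were called in that comparison (13% lower, 5.29% higher). At day 10 Ccnd2 and Ccnd3 were lower, 2 of 10, where 14.6% of all tested genes were called (6.93% lower, 7.63% higher). From day 10 to day 17 in vehicle only Rb1 was called, as lower, against 5.52% of all tested genes (3.63% lower, 1.89% higher). Over the same days in entinostat Cdkn1b, Ccnd2 and Cdk2 were lower, 3 of 10, against 13.7% (10.5% lower, 3.26% higher). The comparisons share libraries: each group stands in 1 comparison of treatment and 1 of time.

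Which members were called depended on scaling, apart from Cdkn1b and Ccnd2 in entinostat day 17. Summed reads of olfactory and vomeronasal receptor genes were 638 to 2033 CPM in vehicle day 10 and 598 to 5615 in entinostat day 10. They were 667.5 to 5156 CPM in vehicle day 17 and 3450 to 6349 in entinostat day 17. Their part in the differences was not tested. The level used as background for a gene was 12.99 CPM. The 10375 genes above the level of olfactory and vomeronasal receptor reads had, under TMM scaling, a median log2 difference of -0.16 at day 10, -0.21 at day 17, -0.08 over time in vehicle and -0.14 over time in entinostat. With library size alone those medians were 0.0036, -0.051, 0.049 and -0.017. The calls then were Cdk2 higher and 0 members lower at day 10 (1 of 10), and Cdk6 and Rb1 higher with Cdkn1b and Ccnd2 lower at day 17 (2 and 2). Over time in entinostat they were Cdk4 and Cdk6 higher with Cdkn1b and Ccnd2 lower (2 and 2), and over time in vehicle no member was called. RLE scaling gave 2 higher and 2 lower at day 17 and 2 higher and 3 lower over time in entinostat. From TMM to library size alone, the share of higher calls among all tested genes went from 52.4% to 76% at day 10, from 28.9% to 48.2% at day 17, from 34.2% to 59.4% over time in vehicle and from 23.7% to 43.3% over time in entinostat. Changes relative to the TMM medians are therefore given beside the fitted ones.

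**Figure D1:**
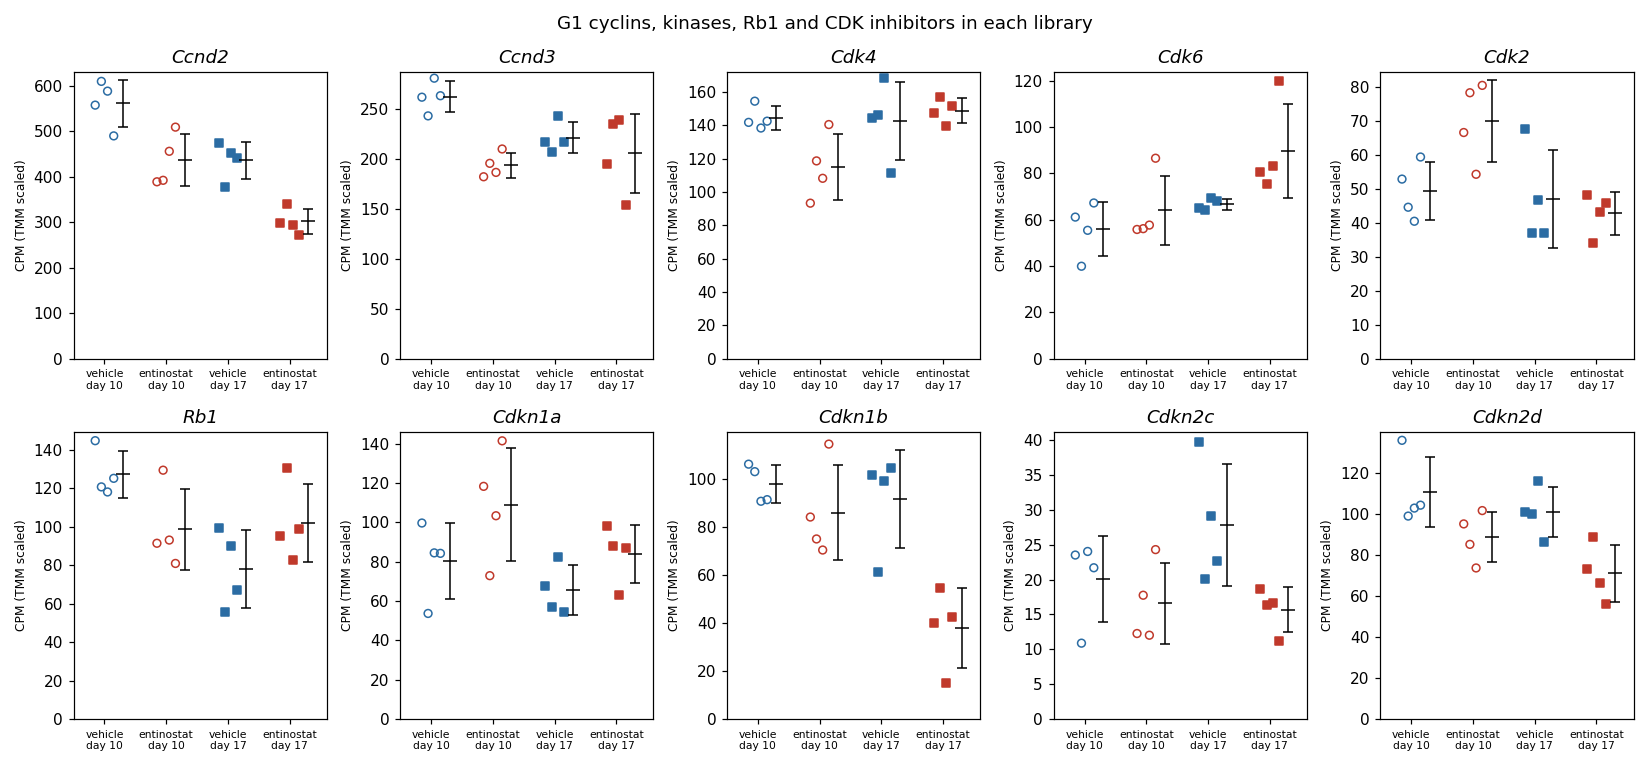
CPM (TMM scaled, vertical axes starting at 0) of the 10 genes in each of the 16 libraries, as open blue circles for vehicle day 10, open red circles for entinostat day 10, filled blue squares for vehicle day 17 and filled red squares for entinostat day 17, with the group mean and SD (n = 4) as bars. Cdkn1b in entinostat day 17 sits between 14.9 and 54.7 CPM, below every library of the other groups, and Ccnd2 in entinostat day 17 sits between 273 and 341 CPM, likewise below all others.

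Ccnd2, the cyclin D2 gene, had the highest CPM of the members. It stood at 558, 610.2, 589 and 490.3 CPM in vehicle day 10 replicates 1 to 4 and at 389, 393, 456 and 509.5 in entinostat day 10. The entinostat libraries lay lower with one overlap, since replicate 4 was above vehicle replicate 4. At day 17 the vehicle libraries had 474, 378, 453 and 441 CPM, and the entinostat libraries had 299, 341, 295 and 273. Every entinostat library at day 17 was below every vehicle library of either day and every entinostat library of day 10.

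At day 17 Ccnd2 differed between treatments by -0.53 ± 0.11 (SE) on the log2 scale (edgeR's quasi-likelihood test, adjusted p = 0.00307), or -0.32 relative to the median of expressed genes. From day 10 to day 17 in entinostat it fell by 0.53 ± 0.11 (adjusted p = 0.00367), which is -0.39 relative to the median. Both calls held in all 16 fits that left out 1 library and under all 10 and 9 other settings that gave a value. Over time in vehicle the change was -0.36 ± 0.11 (adjusted p = 0.0572), with the 4 day 17 libraries below the 4 of day 10. The adjusted p of that change ranged from 0.0209 to 0.152 when a library was left out.

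At day 10 the entinostat effect on Ccnd2 was -0.36 ± 0.11 (adjusted p = 0.0365), or -0.20 relative to the median. This was kept in 4 of the 16 fits that left out 1 library (adjusted p 0.0147 to 0.156), those without replicate 4 of either day 10 group, entinostat day 17 replicate 3 or vehicle day 17 replicate 1. With replicate number as a block over all libraries its adjusted p was 0.0639, and with the block within each day 0.0931. In all it was kept under 4 of 10 other settings and had its largest adjusted p, 0.164, with library size alone. Vehicle day 10 replicate 2 held the lowest plasmacytoid marker sum of its group, 959 CPM, and the highest Ccnd2. It also held the lowest receptor reads of that group (638 CPM) and the lowest Cdkn1a (53.7), Cdkn2c (10.9) and Cdk6 (39.9). No relation between these values was tested.

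Ccnd3, the cyclin D3 gene, was at 262, 243, 281 and 263 CPM in vehicle day 10 and at 182, 196, 187 and 210.0 CPM in entinostat day 10. All 4 entinostat libraries were below all 4 vehicle libraries, and Ccnd3 was the only member whose libraries did not overlap at day 10, where 20.2% of all tested genes did not overlap (12.4% lower, 7.81% higher). Its difference was -0.44 ± 0.11 (adjusted p = 0.0202), or -0.28 relative to the median. The call was lost without vehicle replicate 1 (adjusted p = 0.0537) or 3 (0.0627), without entinostat replicate 1 (0.0624), 2 (0.0528) or 3 (0.0634), and under 3 of 10 other settings, which were library size alone (0.0678), a minimum count of 50 (0.0682) and genes above receptor background (0.0916).

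At day 17 the order of the Ccnd3 groups was not the same. Vehicle libraries had 217, 207, 243 and 217 CPM and entinostat libraries 195, 235, 239 and 154, which overlapped. The effect of entinostat was -0.12 ± 0.12 with a 95% interval from -0.36 to 0.13 (adjusted p = 0.502). With library size alone it was 0.028, so no direction is given. Of the 2 D cyclins, Ccnd2 therefore passed the test at day 17 and Ccnd3 did not, and their relation was examined as a ratio within libraries.

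The kinase Cdk4, the main partner of D cyclins in many tissues, had 142, 154, 138 and 143 CPM in vehicle day 10 and 93.3, 119, 108 and 140.5 CPM in entinostat day 10. Entinostat replicate 4 alone reached the vehicle range. The difference was -0.32 ± 0.13 (adjusted p = 0.0863). At day 17 both groups lay between 111 and 168 CPM, with means of 143 ± 23.4 (SD, n = 4) in vehicle and 149 ± 7.55 in entinostat. Over time in entinostat Cdk4 stood 0.37 ± 0.13 higher (adjusted p = 0.0612, and 0.00826 with library size alone). A stretch of 641 exonic bases, 19.7% of the Cdk4 exons, overlaps Tspan31 on the opposite strand, and unstranded reads from it cannot be told apart.

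Cdk6, the other partner of D cyclins, had 65.0, 64.3, 69.5 and 67.9 CPM in vehicle day 17 and 80.4, 75.4, 82.9 and 119.7 CPM in entinostat day 17. All 4 entinostat libraries were above all 4 vehicle libraries, and replicate 4 was far above its own group. Cdk6 was the only member that did not overlap upwards at day 17, where 24.4% of all tested genes did not overlap (10.8% higher, 13.6% lower). The difference was 0.43 ± 0.19 (adjusted p = 0.11). It passed under 5 of 10 other settings, among them library size alone (0.59, adjusted p = 0.039) and RLE scaling (0.54, 0.0486). At day 10 the groups overlapped, at 39.9 to 67.2 CPM in vehicle and 55.8 to 86.5 CPM in entinostat.

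Cdk2, the kinase that works with cyclins E and A, had 52.9, 44.6, 40.5 and 59.4 CPM in vehicle day 10 and 66.6, 78.3, 54.3 and 80.4 CPM in entinostat day 10. Only entinostat replicate 3 fell within the vehicle range. Its difference of 0.50 ± 0.20 did not pass (adjusted p = 0.0939), and it passed under 5 of 10 other settings. At day 17 the entinostat libraries had 48.2, 33.9, 43.1 and 45.8 CPM, all below those of entinostat at day 10. That fall was -0.71 ± 0.21 (adjusted p = 0.0294), or -0.57 relative to the median, and it did not pass with library size alone (0.068) or when entinostat replicates 2 (0.0628) or 4 (0.0686) of day 10 or replicate 2 (0.0716) of day 17 were left out. In vehicle Cdk2 averaged 49.3 ± 8.45 CPM at day 10 and 47.1 ± 14.4 CPM at day 17.

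Rb1, which encodes the protein that the G1 kinases phosphorylate, had 145, 121, 118 and 125 CPM in vehicle day 10 and 99.3, 55.6, 90.1 and 67.2 CPM in vehicle day 17. The day 17 libraries were all below those of day 10. Rb1 and Ccnd2 were the 2 members that did not overlap over time in vehicle, where 13.6% of all tested genes did not overlap (8.77% lower, 4.78% higher). Rb1 fell by 0.70 ± 0.18 on the log2 scale (adjusted p = 0.0329), which is -0.61 relative to the median. The call was lost without vehicle day 10 replicate 1 (0.0664), 2 (0.053) or 3 (0.0801), without vehicle day 17 replicate 2 (0.0765) or 4 (0.0562), and with library size alone (0.0644).

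In entinostat Rb1 had 91.5, 129, 93.1 and 81.0 CPM at day 10 and 95.5, 131, 82.9 and 98.7 at day 17, so the days overlapped. The effect of entinostat on Rb1 was -0.37 ± 0.18 at day 10 (adjusted p = 0.159) and 0.40 ± 0.18 at day 17 (adjusted p = 0.133, and 0.0301 with library size alone). Exons of Rcbtb2 and Lpar6 on the opposite strand overlap 8.11% and 6.78% of the Rb1 exons.

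**Figure D2:**
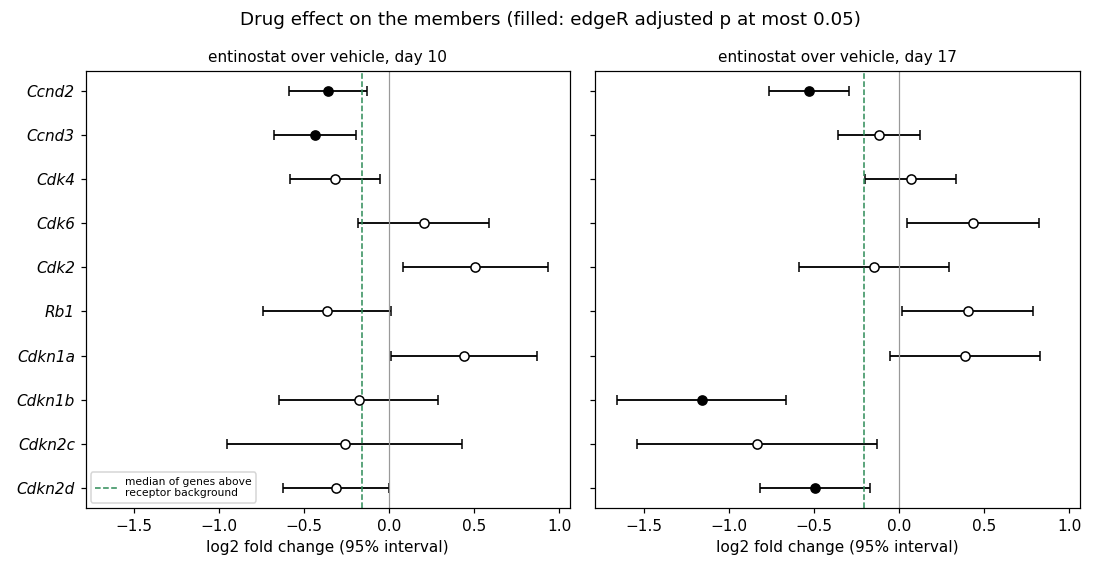
Log2 fold change of entinostat over vehicle at day 10 (left) and day 17 (right) for the 10 genes, with 95% intervals. Filled points are called, and the dashed line is the median of genes above receptor background; Cdkn1b at day 17 stands farthest from 0, at -1.16.

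Promoter sequence is shown for 3 of the genes that the results on inhibitors and D cyclins turn on: Cdkn1a, the textbook gene of HDAC inhibitors, Cdkn1b, the member with the largest change, and Ccnd3, lower at day 10. The sequences are the 250 bases before the outermost annotated start in RefSeq, build GRCm38.p6, all on the + strand, read 5′ to 3′. Capitals mark matches on either strand to a GC box (GGGCGG), the core bound by Sp1-type factors, and to a forkhead word (GTAAACA), the core bound by FOXO factors. No E2F word (TTTGGCGC, TTTCCCGC, TTTCGCGC or TTTGCCGC) lay in these 3 windows.
Cdkn1a chr17:29090729-29090978: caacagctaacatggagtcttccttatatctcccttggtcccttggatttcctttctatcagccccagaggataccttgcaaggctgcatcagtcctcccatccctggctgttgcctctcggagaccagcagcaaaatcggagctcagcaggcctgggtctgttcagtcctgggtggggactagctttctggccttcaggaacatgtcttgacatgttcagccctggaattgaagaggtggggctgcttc
Cdkn1b chr6:134920151-134920400: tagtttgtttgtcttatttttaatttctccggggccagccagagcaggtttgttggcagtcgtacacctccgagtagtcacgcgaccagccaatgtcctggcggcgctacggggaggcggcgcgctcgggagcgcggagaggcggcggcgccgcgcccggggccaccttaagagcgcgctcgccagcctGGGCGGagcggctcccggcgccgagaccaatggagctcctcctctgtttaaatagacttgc
Ccnd3 chr17:47504801-47505050: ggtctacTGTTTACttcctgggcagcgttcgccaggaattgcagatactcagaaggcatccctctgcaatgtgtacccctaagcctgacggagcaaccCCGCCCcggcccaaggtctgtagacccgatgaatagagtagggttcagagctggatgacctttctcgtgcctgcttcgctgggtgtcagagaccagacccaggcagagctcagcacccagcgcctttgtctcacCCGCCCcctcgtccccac

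The Cdkn1b window held 1 GC box, which began 61 bases before the start. The Ccnd3 window held 2, at 152 and 18 bases, with a forkhead word at 243 bases. A second listed start of Ccnd3, at 47593467, had 1 GC box at 46 bases and no forkhead word. The Cdkn1a window held neither, and a second listed start of Cdkn1a had GC boxes at 104 and 46 bases. RefSeq promoters were matched for 8 of the 10 members, with 11 listed starts. A GC box lay before 8 of these 11 starts, against 32.7% of all 32851 listed starts. An E2F word lay before 1 of them, the start of Cdk2, which also had 5 GC boxes, against 1.86% of all. A forkhead word lay before 1, against 3.17%. No 2 matches shared a base. A match describes the letters of the window and is no evidence of binding.

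Cdkn1b encodes p27. It had 106, 103, 90.6 and 91.3 CPM in vehicle day 10, 84.0, 74.9, 70.3 and 114 in entinostat day 10, and 102, 61.1, 99.1 and 105 in vehicle day 17. In entinostat day 17 it had 39.9, 54.7, 14.9 and 42.4 CPM. These 4 libraries were below all 12 others, and the nearest of the others was vehicle day 17 replicate 2. The lowest value, in replicate 3, rested on 9 counts (exact Poisson 95% interval 6.83 to 28.3 CPM, for counting error only), and the other 3 had 124 to 203 counts.

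At day 17 Cdkn1b was 0.447 times as high in entinostat as in vehicle, a log2 fold change of -1.16 ± 0.24 (edgeR's quasi-likelihood test, adjusted p = 0.0023), or -0.96 relative to the median of expressed genes. From day 10 to day 17 in entinostat it fell by 1.07 ± 0.24 (adjusted p = 0.00512), which is -0.93 relative to the median. Over time in vehicle its change was -0.09 ± 0.22 with a 95% interval from -0.56 to 0.37 (adjusted p = 0.813), and at day 10 the effect of entinostat was -0.18 ± 0.22 (adjusted p = 0.577). Both calls held in all 16 fits that left out 1 library and under every other setting that gave a value. Without entinostat day 17 replicate 3 the 2 changes were -0.97 (adjusted p = 0.00378) and -0.92 (0.00587).

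Cdkn1b, Cdkn2c and Ccnd2 were the 3 members whose libraries lay lower without overlap at day 17, where 13.6% of all tested genes did so. Cdkn1b, Ccnd2 and Cdk2 were the 3 over time in entinostat, where 21.5% did not overlap (12.5% lower, 8.94% higher). Cdkn1b and Ccnd2 both lie on chromosome 6 (GRCm38 134920401 to 134925525 and 127125162 to 127152188), 7.768 Mb apart. Over the 16 libraries their log2 CPM had r = 0.81, and after removing group means 0.44. This is a description over libraries that share groups and scaling.

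Cdkn1a encodes p21, which p53 and HDAC inhibitors are known to raise. It had 99.6, 53.7, 84.4 and 84.2 CPM in vehicle day 10 and 118, 72.9, 103 and 141 CPM in entinostat day 10. At day 17 it had 67.5, 57.2, 82.4 and 54.5 CPM in vehicle and 98.1, 88.0, 63.0 and 86.8 CPM in entinostat. The entinostat libraries lay mostly higher, with 1 library at each day inside the vehicle range. Day 10 libraries of equal replicate number were also set side by side, though the labels do not give this pairing and it is uncertain. Cdkn1a was higher in entinostat in all 4 pairs, as was Cdk2, and Ccnd3, Cdk4 and Cdkn2d were lower in all 4. For Ccnd3, whose libraries did not overlap, any pairing gives this. The share of all tested genes that went 1 way in all 4 pairs was not counted. A sign-flip test of 4 pairs cannot go below 0.125. With the block within each day Cdkn1a at day 10 had an adjusted p of 0.111. The effect was 0.44 ± 0.20 at day 10 (95% interval 0.012 to 0.87, adjusted p = 0.139) and 0.39 ± 0.21 at day 17 (-0.051 to 0.83, adjusted p = 0.204), and neither passed. Leaving out entinostat day 10 replicate 2 gave 0.64 with an adjusted p of 0.0451 at day 10. Testing only genes above receptor background gave 0.58 with 0.0467 at day 17. The difference between the days was -0.05 ± 0.29.

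**Figure D3:**
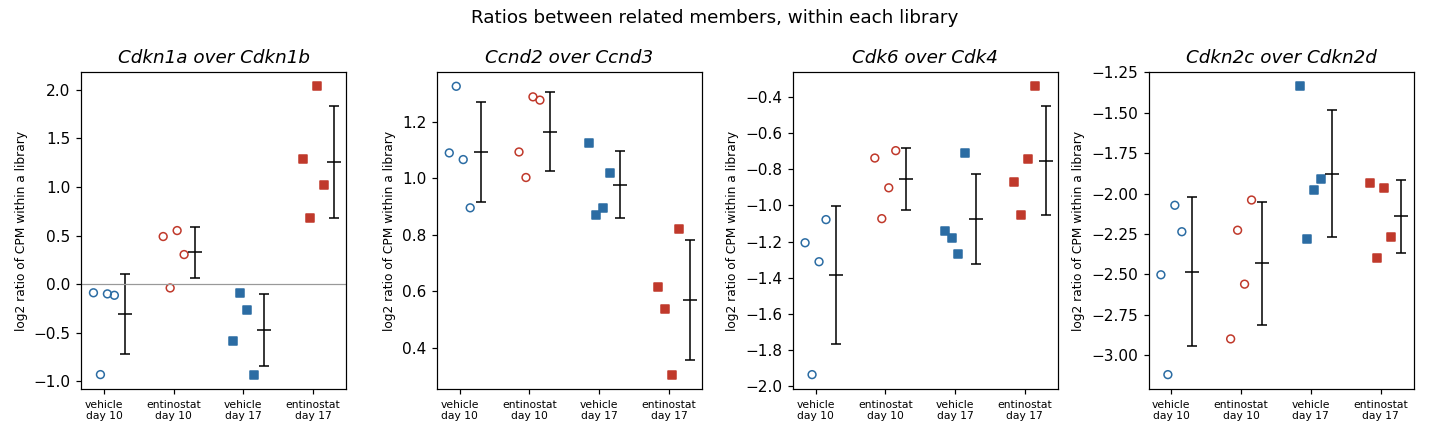
Log2 ratio of CPM between paired genes within each library (vertical axes do not start at 0), with group mean and SD (n = 4), for Cdkn1a over Cdkn1b, Ccnd2 over Ccnd3, Cdk6 over Cdk4 and Cdkn2c over Cdkn2d; symbols are as in the plot of CPM by library. Cdkn1a over Cdkn1b lies between 0.68 and 2.04 in entinostat day 17, above all other libraries.

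A ratio of 2 genes within a library does not depend on the scaling between libraries. The log2 ratio of Cdkn1a to Cdkn1b was -0.31 ± 0.42 (SD, n = 4) in vehicle day 10, 0.33 ± 0.27 in entinostat day 10, -0.47 ± 0.37 in vehicle day 17 and 1.26 ± 0.58 in entinostat day 17. Cdkn1b thus exceeded Cdkn1a in all 8 vehicle libraries, and the order was the other way round in 7 of the 8 entinostat libraries, all but day 10 replicate 2 at -0.04. The entinostat groups did not overlap the vehicle groups at either day. The ratio was higher by 0.64 at day 10 and by 1.73 at day 17, each at the smallest p that a 2-sided exact permutation test of 4 against 4 can give, 0.029, which became 0.0763 after adjustment over 16 tests. It was also higher by 0.93 at day 17 than at day 10 in entinostat, with the same p, while in vehicle the days differed by -0.16 (exact p = 0.571). These are CPM of whole genes of unequal length, so the sign of a ratio is no order of molecules.

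The log2 ratio of Ccnd2 to Ccnd3 was 0.57 ± 0.21 in entinostat day 17, against 0.98 ± 0.12 in vehicle day 17 and 1.17 ± 0.14 in entinostat day 10. The entinostat day 17 libraries did not overlap either group, and both differences, -0.41 and -0.60, had the smallest exact p of 0.029 (adjusted 0.0763). At day 10 the ratio differed between treatments by 0.07 (exact p = 0.6). The ratio of Cdk6 to Cdk4 was -0.85 ± 0.17 in entinostat day 10 and -1.38 ± 0.38 in vehicle day 10, without overlap (difference 0.53, exact p = 0.029, adjusted 0.0763). At day 17 that difference was 0.32 (exact p = 0.171). None of the 16 tests passed after adjustment, and with 4 libraries a group none could fall below 0.029 before it.

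The INK4 gene Cdkn2d had 136, 99.02, 103 and 104 CPM in vehicle day 10 and 95.2, 85.2, 73.7 and 102 CPM in entinostat day 10. At day 17 it had 101, 100.1, 116 and 86.4 CPM in vehicle and 73.0, 88.9, 66.4 and 56.0 CPM in entinostat. Entinostat replicate 2 alone was above the lowest vehicle library of that day. The difference at day 17 was -0.50 ± 0.15 (adjusted p = 0.0319), or -0.29 relative to the median. It was lost without entinostat day 17 replicate 1 (0.0744), 3 (0.0781) or 4 (0.146), without vehicle day 17 replicate 1 (0.0819), 2 (0.0634) or 3 (0.112), and under 6 of 10 other settings (adjusted p 0.0624 with DESeq2 to 0.0992 above receptor background).

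Cdkn2c, the other INK4 gene, was the member of lowest CPM, with 10 to 264 counts a library. It had 39.7, 20.1, 29.1 and 22.6 CPM in vehicle day 17 and 18.6, 16.4, 16.6 and 11.2 CPM in entinostat day 17, all lower. The difference of -0.84 ± 0.34 did not pass (adjusted p = 0.0908), nor did it under any of 10 other settings or 16 fits with a library left out (adjusted p 0.0738 to 0.31). At day 10 the groups overlapped, at 10.9 to 24.0 CPM in vehicle and 12.03 to 24.3 CPM in entinostat.

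The change of the entinostat effect between days was tested as an interaction. None of the 10 members passed edgeR's test, in which 0.471% of all tested genes were called (0.218% higher, 0.253% lower), and 4 had an unadjusted p under 0.05. These were Cdkn1b (-0.98 ± 0.32, adjusted p = 0.186), Rb1 (0.77 ± 0.26, 0.19), Cdk2 (-0.65 ± 0.29, 0.352) and Cdk4 (0.39 ± 0.18, 0.367). DESeq2 called 2 of them, Cdkn1b (-0.94, adjusted p = 0.0496) and Rb1 (0.83, 0.0306), and limma-voom called 0. The effect on Cdkn1b passing at day 17 and not at day 10 was thus not shown by edgeR to differ between the days.

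**Figure D4:**
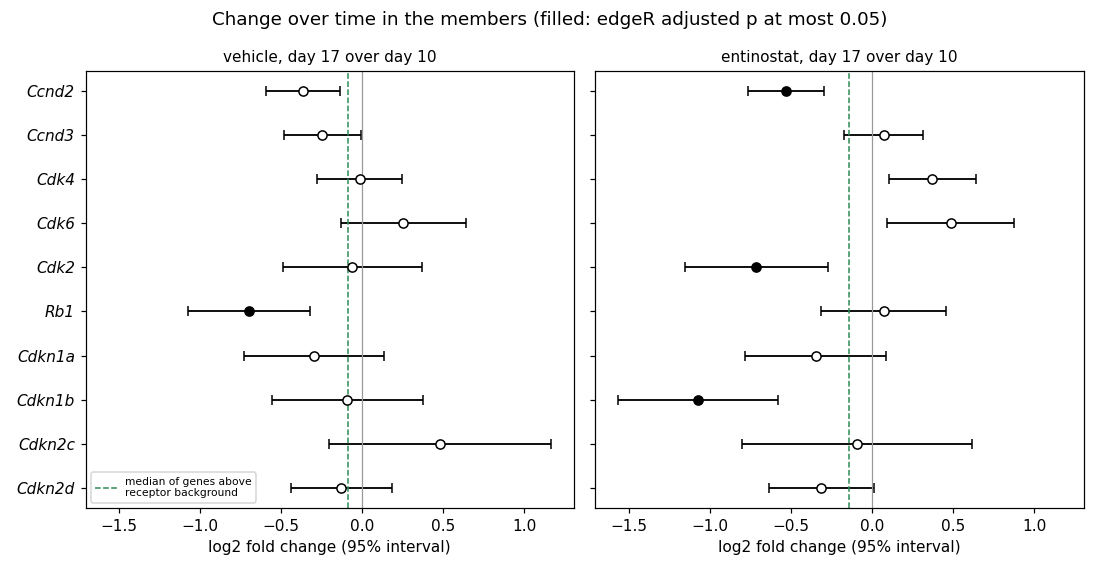
Log2 fold change from day 10 to day 17 in vehicle (left) and entinostat (right) for the 10 genes, with 95% intervals; filled points are called and the dashed line is the median of genes above receptor background. Rb1 is the filled point in vehicle, and Cdkn1b, Ccnd2 and Cdk2 are those in entinostat.

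Levels between genes were compared as CPM per kilobase of exon (GENCODE vM21 exon lengths). In vehicle day 10 the order was Cdkn2d (70.2 ± 10.9, SD, n = 4), Ccnd2 (59.7 ± 5.55), Cdk4 (44.4 ± 2.16), Ccnd3 (29.9 ± 1.76), Cdkn1a (22.6 ± 5.43), Cdkn1b (21.5 ± 1.74), Rb1 (21.2 ± 2.01), Cdk2 (7.93 ± 1.36), Cdkn2c (7.46 ± 2.30) and Cdk6 (3.997 ± 0.836). Neighbours from Cdkn1a to Rb1, and Cdk2 and Cdkn2c, differed by less than their SD. In entinostat day 17 Cdk4 (45.8 ± 2.32) and Cdkn2d (45.1 ± 8.76) led, and Ccnd2 followed at 32.1 ± 3.02. Cdkn1b had 8.34 ± 3.66 and Cdkn1a 23.6 ± 4.18 in that group, and Cdk2, Cdk6 and Cdkn2c lay between 5.85 and 6.88. Cdk6 held the last place in 3 of the 4 groups. The spread of a member within a group, as SD over mean CPM, was 3.65% (Cdk6, vehicle day 17) to 43.9% (Cdkn1b, entinostat day 17).

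Of the other genes of the pathway, 38 were listed by role and all 38 were tested. At day 10, 2 were higher and 0 lower in entinostat, with 36 not called, where 14.6% of all tested genes were called (7.63% higher, 6.93% lower). The 2 were Mnat1, a subunit of the CDK-activating kinase (0.59 ± 0.19, adjusted p = 0.0459, 22.1 to 33.4 CPM on average), and Cdkn1c, the gene of the Cip/Kip inhibitor p57 (1.99 ± 0.65, 0.0474). Cdkn1c rested on 5 to 13 counts a library in vehicle and 22 to 73 in entinostat. The cyclin E1 gene Ccne1 was not called, at 16.1 ± 7.17 CPM in entinostat against 25.7 ± 1.74 in vehicle (-0.68 ± 0.36, adjusted p = 0.196). At an unadjusted p under 0.05, 3 were higher and 6 lower, and DESeq2 called 2 higher and 3 lower. With the replicate block over all libraries or with no filter 0 of the 38 were called, and with the block within each day 1, as lower. The call of Mnat1 was kept in 7 of the 16 fits that left out 1 library (adjusted p up to 0.128) and that of Cdkn1c in 3 (up to 0.111). The median log2 fold change of the list was -0.10, against -0.16 for all genes above receptor background.

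At day 17, 2 of the 38 were higher and 4 lower in entinostat, with 32 not called. Of all tested genes 18.3% were called there (5.29% higher, 13% lower). The median of the list was -0.01, against -0.21 for all genes above receptor background. Ccne1, the cyclin E1 gene that partners Cdk2, was higher at 42.1 ± 14.7 against 19.3 ± 8.40 CPM (1.14 ± 0.36, adjusted p = 0.0371). Cdkn1c was called higher on 1 to 15 counts a library in entinostat against 0 to 3 in vehicle, too few for a fold. The lower ones of smallest p were Fbxw7, which targets cyclin E for breakdown (-0.49 ± 0.15, 0.0267), Klf4, a factor of quiescent T cells (-1.03 ± 0.32, 0.0319), and Foxo3, at 1 to 7 counts a library in entinostat and 22 to 76 in vehicle (-1.91 ± 0.58, 0.0304). The fourth was Zbtb17 (-0.61 ± 0.19, 0.037), named after its values were seen. Leaving out 1 library ended each of these calls in some fits: Ccne1 was kept in 11 of 16 fits, Fbxw7 in 12, Klf4 in 11, Foxo3 in 10, Zbtb17 in 6 and Cdkn1c in 15, all but the fit without entinostat day 17 replicate 2. Most other settings also ended the calls of Fbxw7 (kept in 3 of 10), Klf4 (4 of 10) and Zbtb17 (3 of 10), while Ccne1 was kept in 9 of 10, Foxo3 in 7 of 8 and Cdkn1c in 7 of 7. Group means of Foxo3 (2.04 to 9.18 CPM) and Cdkn1c (0.325 to 9.43 CPM) were all under the receptor background of 12.99 CPM. Not every setting gave a value for these genes. With library size alone or RLE scaling 4 of the list were higher and 1 lower, and with DESeq2 7 and 2.

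Over time in vehicle 1 of the 38 rose, Cdk1, the mitotic kinase (0.96 ± 0.28, adjusted p = 0.0481), and 4 fell. Of all tested genes 1.89% were called higher and 3.63% lower. Foxo1, a factor that maintains T cell quiescence, fell by 0.68 ± 0.11 (0.00396). Rbl2, a pocket protein related to Rb1, fell by 0.54 ± 0.09 (0.00423), and Sp1 by 0.47 ± 0.11 (0.0211). The fourth was Cdkn1c, at 0 to 3 counts a library on day 17. Foxo1 and Rbl2 were called in all 16 fits that left out 1 library. Sp1 was lost without vehicle day 10 replicate 1 or 2 or vehicle day 17 replicate 2, and Cdk1 was called in 4 of 16. With library size alone 2 rose and 2 fell.

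Among the entinostat libraries 7 of the 38 rose from day 10 to day 17 and 6 fell, with 25 not called. The median was 0.06, against -0.14 for all genes above receptor background. Of all tested genes 3.26% were called higher and 10.5% lower. Cks1b, which helps to break down p27, rose by 1.67 ± 0.29 (adjusted p = 0.000758), from 19.4 ± 6.61 to 62.4 ± 9.54 CPM. Cdk1 rose by 1.60 ± 0.28 (0.000887) and Ccna2, cyclin A2, by 1.72 ± 0.32 (0.00167). Foxo1 fell by 0.90 ± 0.12 (7.86e-05), from 352 ± 12.3 to 189.9 ± 20.4 CPM, Sp1 by 0.57 ± 0.11 (0.00244) and Ambra1, which targets D cyclins for breakdown, by 0.65 ± 0.13 (0.00283). These 6 genes were called in all 16 fits that left out 1 library. Ccne1 also rose, by 1.41 ± 0.37 (adjusted p = 0.0153), from 16.1 ± 7.17 to 42.1 ± 14.7 CPM. That call was kept in 15 of the 16 fits, all but the fit without entinostat day 17 replicate 1. No gene of the list passed edgeR's interaction test, where 8 had an unadjusted p under 0.05 and DESeq2 called 3, all higher.

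**Figure D5:**
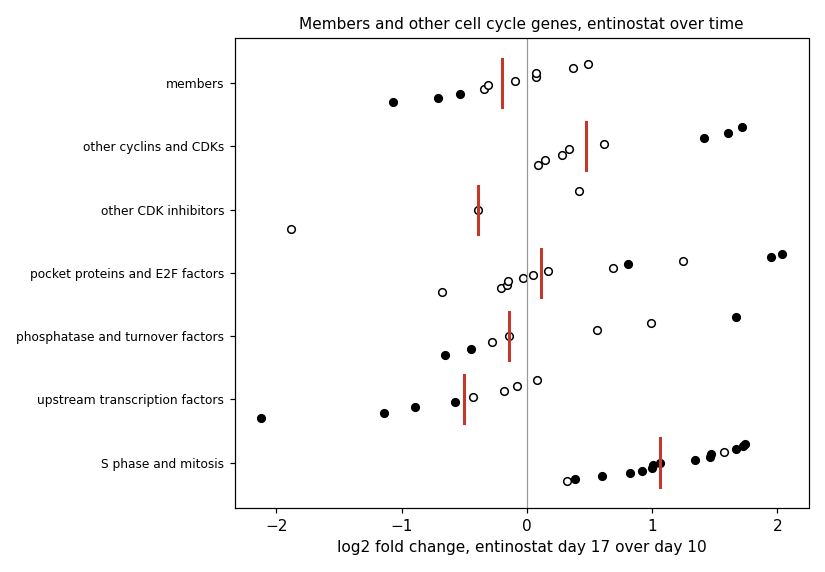
Log2 fold change from day 10 to day 17 in entinostat for the 10 members, the 5 roles of the pathway list and the S phase and mitosis list, 1 point a gene, filled where called, with a red bar at the median of each row (vertical offset within a row is only for legibility). The S phase and mitosis row lies to the right of 0, with 13 of 15 filled, and the members' row has 3 filled points, all to the left.

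Of 15 genes of S phase and mitosis, 13 rose over time in entinostat, with a median of 1.06, and 2 rose in vehicle, with a median of 0.21. Of all tested genes 3.26% were called higher over time in entinostat and 1.89% in vehicle. At day 17, 10 of the 15 were higher in entinostat than in vehicle and 0 lower, against 5.29% and 13% of all tested genes. At day 10 edgeR called none (1 lower at an unadjusted p under 0.05, DESeq2 0, limma-voom 2 lower). In the interaction edgeR called 1, Mcm5 of the replicative helicase (0.85 ± 0.19, adjusted p = 0.0494), against 0.471% of all tested genes. DESeq2 called 8 there, all higher. The Mcm5 call was kept in 2 of 16 fits that left out 1 library. Mki67, the Ki-67 gene, had 72.9 ± 20.0 CPM in vehicle day 10, 77.5 ± 10.4 in entinostat day 10, 140 ± 25.5 in vehicle day 17 and 209 ± 61.3 in entinostat day 17. It was higher in entinostat at day 17 by 0.60 ± 0.20 (adjusted p = 0.0482) and rose over time in both arms, by 0.95 ± 0.21 in vehicle (0.016) and 1.47 ± 0.21 in entinostat (0.000177). The call at day 17 was kept in 8 of the 16 fits that left out 1 library, with adjusted p up to 0.135, and that in vehicle was lost without vehicle day 10 replicate 1 or 2. The number of the 15 that were higher at day 17 was 7 to 11 in those fits. The summed CPM of the 15 genes was 2167 to 2651 in the entinostat day 17 libraries, against 1129 to 1851 in the others. Cdkn1b was lowest in the same group. Replicates 1 to 4 had sums of 2651, 2167, 2176 and 2373 and Cdkn1b at 39.9, 54.7, 14.9 and 42.4 CPM. In replicates 1, 2 and 4 a higher sum stood beside a lower Cdkn1b. Replicate 3, the shallowest library, departed from that order, and its Cdkn1b value rested on 9 counts. The relation of Cdkn1b to the sum was not tested.

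Ccnd1, the third D cyclin, which T cells use little, varied more within groups than between them, at 4.67 to 70.9 CPM in vehicle day 10 and 2.23 to 102 in entinostat day 10. It passed no test, and its level at day 17 was 78.8 ± 41.9 CPM in vehicle and 37.4 ± 12.5 in entinostat. Summed fibroblast markers ranged from 130 to 1456 CPM in vehicle day 17 and from 124 to 393 in entinostat day 17; their part was not tested. Cdkn2a, the p16 and p19ARF gene, had 0 to 10 counts a library in vehicle day 10, 1 to 63 in entinostat day 10, 4 to 27 in vehicle day 17 and 0 to 13 in entinostat day 17, and passed no test.

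For each member the genes of most similar profile over the 16 libraries were found among 9479 genes of at least 16 CPM, by Pearson's r of log2 CPM. For Cdkn1b they were Gltscr1 (r = 0.96) and Ankrd16 (0.96), and for Ccnd2 Sh3gl1 (0.98) and Tapbpl (0.97). For Cdk4 they were Phb2 (0.94) and Mrpl42 (0.94), for Ccnd3 Ttc9c (0.92) and Tram1 (0.92), for Rb1 Pds5a (0.92) and Mrs2 (0.89), and for Cdkn2d Cyth4 (0.91) and Rtfdc1 (0.91). For Cdk6 they were Dst (0.88) and Mt1 (0.88), for Cdk2 Cox11 (0.87) and Pogz (0.85), and for Cdkn2c Prr5 (0.87) and Ormdl2 (0.86). Cdkn1a had the weakest nearest genes, Erc1 (0.77) and Aplp2 (0.74). These r are the highest of many and describe libraries that share groups, depth and scaling.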

How the data were processed

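RNA of sorted CD8 T cells went through SMART-seq v4 amplification and Nextera XT tagmentation, per the labels' protocols; this chemistry marks neither strand nor single molecules. Intervals of fold changes include the spread between libraries; the Poisson interval covers counting error only. The values deposited by the authors were whole-number counts per gene, not scaled. The submitters' processing notes name STAR and mm10; which program and annotation produced the counts is not given in the sources used here. The members and gene lists were chosen with earlier results of these data known.

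Counts were analysed in R 4.3.3 with edgeR 4.0.16 (TMM, filterByExpr at a minimum count of 10, quasi-likelihood test on 16 libraries with a mean per group and 12 residual degrees of freedom, Benjamini-Hochberg at 0.05 over all 17414 genes tested). CPM are given with SD and log2 fold changes with SE. Ratios used a prior count of 2 and 2-sided exact permutation tests. Positions and promoters came from RefSeq GRCm38.p6, exon lengths from GENCODE vM21. The test was also run on simulated counts, in which neither receptor reads nor the mixture of cells was set to differ between libraries. That run does not bear on either. Total counts were 554593 to 6975904 per library, and precision is lowest in the shallowest.

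Genes named were all members, up to 3 pathway genes per direction and comparison of smallest p among those called, Ccnd1, Ccne1, Ccna2, Cdkn2a, Mki67 and Cd8a, and the 2 nearest profiles of each member. Equal replicate numbers were checked as pairs by correlating deviations from group means over 10375 genes. Between the day 10 groups the correlations were 0.253, 0.228, 0.213 and 0.234, so the numbers were taken to pair libraries there, from the data and not the labels. Entinostat replicate 3 correlated better with a vehicle library of another number. Over all tested genes the correlations were 0.180, 0.0329, 0.114 and 0.0572, and only replicate 1 correlated best with its own number. The pairing is therefore uncertain. In no other comparison were all 4 over 0.1.

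The tests were repeated with DESeq2 1.42.0 and with limma-voom 3.58.1 (quality weights), without the filter and at a minimum count of 50, under library size alone and under RLE scaling, on only the groups compared, on genes above receptor background, with 2 replicate blocks, and leaving out each library.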

Additional observations from a re-analysis of the deposited data

Results flagged for a closer look

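Of 56 sets of 4 libraries looked at (40 of CPM and 16 of ratios), 5 held 1 library far from the other 3 by Dixon's criterion, and chance flags about 1 in 20 such sets. Cdkn1b was at 61.1 CPM in vehicle day 17 replicate 2, below 99.1 to 105 in the others. Cdkn2d was at 136 CPM in vehicle day 10 replicate 1, above 99.02 to 104. Cdk6 was at 86.5 CPM in entinostat day 10 replicate 4, above 55.8 to 57.7, and at 119.7 CPM in entinostat day 17 replicate 4, above 75.4 to 82.9. The log2 ratio of Cdkn1a to Cdkn1b was -0.93 in vehicle day 10 replicate 2, below -0.12 to -0.09 in the others of its group.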

How the results depend on the processing

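The calls of Cdkn1b and Ccnd2 at day 17 and over time in entinostat held under every setting and left-out library; the other calls did not. The number of members called at day 10 was 4 with limma-voom and 1 with library size alone, a minimum count of 50, genes above receptor background, and either replicate block. At day 17 it was 2 with only the groups compared, 5 above receptor background and 3 or 4 elsewhere. Over time in vehicle it was 2 with DESeq2 and limma-voom and 0 with library size alone. In entinostat over time it was 5 with DESeq2, limma-voom, RLE scaling, a minimum count of 50 and above receptor background. DESeq2 called 2 in the interaction. Leaving out 1 library gave 0 to 3 at day 10, 0 to 2 over time in vehicle, 2 to 4 at day 17, 2 to 4 over time in entinostat and 0 in the interaction. Either block ended the call of Ccnd2 at day 10 and no other call of a member; the block over all libraries added Cdk6 over time in entinostat (0.49, adjusted p = 0.0401). A block within each day could not be fitted for comparisons between days. Paired sign-flip tests of the ratios cannot go below 0.125.

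Values that changed sign were all of genes that passed in no setting of that comparison, and the cause was not tested. Over time in vehicle Cdk4 was 0.0031 with DESeq2, 0.059 with limma-voom, 0.0025 with RLE scaling, 0.12 with library size alone, 0.063 at a minimum count of 50, 0.020 with only the groups compared and 0.087 above receptor background. There Cdk2 was 0.065 with library size alone, 0.0044 at a minimum count of 50 and 0.028 above receptor background, Cdkn1b 0.039 and 0.0099 with library size alone and above receptor background, and Cdkn2d 0.0055 with library size alone. At day 17 Cdk2 was 0.056, 0.017, 0.043 and 0.055 with limma-voom, library size alone, a minimum count of 50 and above receptor background, and Ccnd3 0.028, 0.050 and 0.062 with the last 3. In entinostat over time Cdkn2c was 0.21, 0.036, 0.044 and 0.065 with limma-voom and the same 3. The Cdkn1a interaction was 0.16, 0.0031 and 0.0065 with limma-voom, RLE scaling and a minimum count of 50. Leaving out 1 library moved Cdk4 over time in vehicle from -0.11 to 0.059, Cdk2 from -0.32 to 0.018 and Cdkn1b from -0.18 to 0.031; Cdk2 at day 17 from -0.21 to 0.12 and Ccnd3 from -0.17 to 0.032; over time in entinostat Cdkn2c from -0.23 to 0.14, Rb1 from -0.089 to 0.19 and Ccnd3 from -0.031 to 0.17; the Cdkn1a interaction from -0.22 to 0.11; and the log2 ratios of Cdkn2c to Cdkn2d at day 10 from -0.16 to 0.21 and of Cdk6 to Cdk4 over time in entinostat from -0.038 to 0.20. Depth limits Cdkn2c and the entinostat day 17 replicate 3 values most.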
